A study of Mus musculus with 4 samples.

Results

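The transcripts of the mitochondrial genome were examined in 4T1, a mouse mammary carcinoma cell line of epithelial type used as a model of breast cancer. Cultures of the wild-type line had been treated with recombinant IL-17A (rIL17) or with phosphate-buffered saline (PBS). From total RNA, 2 libraries per group, 4 in all, were made and sequenced. Whether poly(A) RNA was selected is not stated here, so values describe the libraries and not total RNA. The labels give no dose or duration of treatment. Nor do they say that replicate libraries stem from different cultures, so the p-values reflect the spread among the 4 libraries and that spread may be technical. Members were all rows of the deposited table whose gene identifier carries a symbol beginning with mt-. There were 28 such rows of 21840, namely 13 mRNAs, 2 rRNAs and 13 of the 22 annotated tRNAs. The other tRNAs (mt-Tf, mt-Tv, mt-Tq, mt-Tm, mt-Ta, mt-Ts1, mt-Td, mt-Tk and mt-Tg) were not analysed here.

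Mitochondrial DNA is a small circle that is transcribed on both strands into long precursor RNAs. Excision of the tRNAs that lie between the other genes releases the mRNAs, which encode subunits of respiratory complexes I, III, IV and V, and the 2 rRNAs of the mitochondrial ribosome. Nearly all mRNAs are annotated on the plus strand of the reference sequence, and mt-Nd6 and a minority of the tRNAs on the minus strand. All other respiratory chain subunits, and the machinery that makes and degrades mitochondrial RNA, are encoded in the nucleus.

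Values are the authors' normalized counts, in which the reads of each gene were divided by a factor close to 1 for each library. Undone, the libraries held 17911079 and 17715520 reads assigned to genes in rIL17 and 17970104 and 17511450 in PBS. The keratin genes Krt8 and Krt18, which mark simple epithelium, had 25498 and 26467 normalized counts (Krt8) and 15966 and 16720 (Krt18) in the rIL17 libraries, against 29749 and 32665 (Krt8) and 19346 and 20159 (Krt18) in the PBS libraries. The 4 leukocyte markers with a row summed to 123 and 134 normalized counts in rIL17 and to 121 and 123 in PBS, and Ptprc, the pan-leukocyte gene, was at 3.02 and 2.01 in rIL17 and at 0 in both PBS libraries. The 7 fibroblast markers with a row summed to 2973 and 2969 in rIL17 and to 2448 and 2557 in PBS, nearly all of it Pdgfra, a growth factor receptor gene (2855 and 2862 in rIL17, 2328 and 2462 in PBS). Of these 7, the groups separated with rIL17 above PBS for 3 and below for 3, beside 25.4% and 20% of all genes tested. The median log2 fold change of the 7 was -0.47. Dcn, a matrix proteoglycan gene, had 62.3 and 46.1 in rIL17 and 26.5 and 17.9 in PBS, and Postn, a matrix protein gene, was at 0 in both rIL17 libraries and at 1.96 and 1.99 in PBS. Their part in the mitochondrial values was not tested. PBS replicate 2 stood apart from the other 3 libraries in the mitochondrial transcripts, so values are given for each library and, where it matters, without it.

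All 3 RNA classes took a larger share of the rIL17 libraries than of the PBS libraries, and the ratio between the groups was largest for the tRNAs. Mitochondrial mRNAs made up 1.28% and 1.16% of all counts in rIL17 replicates 1 and 2, against 0.828% and 0.286% in PBS replicates 1 and 2. The rRNAs made up 0.0189% and 0.0170% in rIL17 and 0.0101% and 0.00531% in PBS. The tRNAs made up 0.00283% and 0.00204% in rIL17, and 4.56e-04% and 3.43e-05% in PBS, where they rested on 82 and 6 reads. The ratio of mean shares, rIL17 over PBS, was 2.19 for mRNAs, 2.32 for rRNAs and 9.91 for tRNAs. Against PBS replicate 1 alone it was 1.47 for mRNAs, 1.77 for rRNAs and 5.33 for tRNAs. Within each group the spread was unequal. The mRNA share was 2.90-fold higher in PBS replicate 1 than in PBS replicate 2, but only 1.11-fold higher in rIL17 replicate 1 than in rIL17 replicate 2. In bulk RNA, more mitochondrial RNA per cell cannot be told apart from more cells that are rich in it.

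**Figure D1:**
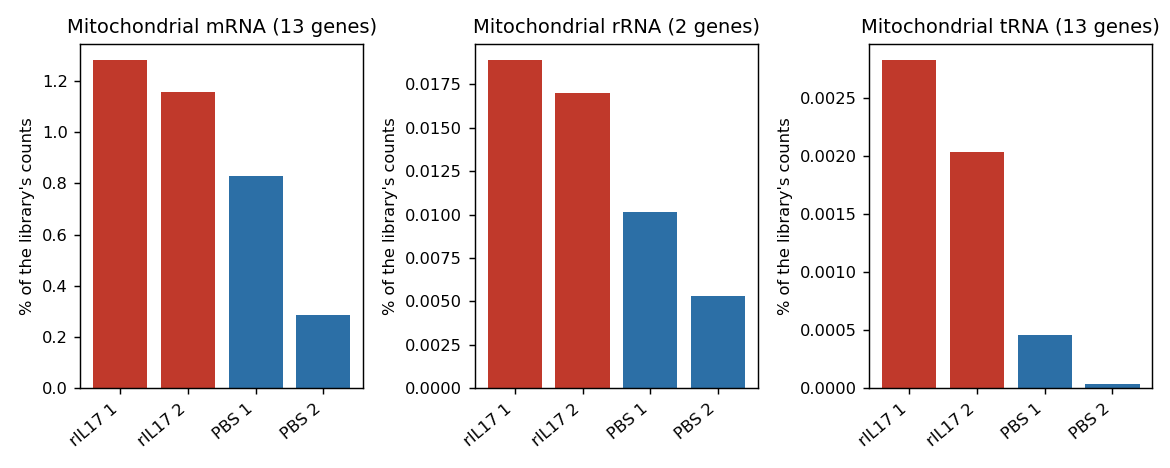
Share of each library's counts taken by mitochondrial mRNAs, rRNAs and tRNAs (y axis, percent of all counts in the library; each panel has its own scale starting at 0), with 1 bar per library and rIL17 in red and PBS in blue. Both rIL17 bars stand above both PBS bars in every panel, and PBS replicate 2 is the lowest in all 3.

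For 24 of the 28 members both rIL17 libraries lay above both PBS libraries, where 25.4% of all 20677 tested genes did so. All 28 passed the filter on low values (mean of 1 or more in either group), the 7 tRNAs at 0 in both PBS libraries only through the rIL17 libraries. For 1 member, mt-Atp8, the order was the opposite (20% of all tested genes), and for 3 tRNAs the groups overlapped. By class, the groups separated upwards for 12 of 13 mRNAs, 2 of 2 rRNAs and 10 of 13 tRNAs. The median log2 fold change, on the log2(normalized count + 1) scale, was 1.42 for mRNAs, 1.48 for rRNAs and 3.41 for tRNAs, beside 0.01 over all genes tested. For the 13 tRNAs it was 2.70, the value of mt-Tl1, with members at 0 in both PBS libraries placed at the lower bound that 3 reads in each PBS library would give. mt-Ti and mt-Tt, whose rIL17 means lie below 3 reads, have no such bound and were placed at 0.

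No member passed an adjusted p below 0.05 in limma over all genes tested (0 of 28; background 0%), and limma-voom called 0 as well. At an unadjusted p below 0.05, limma gave 15 of 28 members, beside 12.8% of all genes. Of these, 14 were higher in rIL17, where 7.63% of all genes were, and 1, mt-Atp8, was lower, where 5.15% were. The 14 include mt-Tr, mt-Th, mt-Ts2, mt-Tl2 and mt-Te, which were at 0 in both PBS libraries. Those tRNAs were in the test only through the rIL17 libraries, so they could only come out higher. A stricter filter asked for 10 or more normalized counts in both libraries of 1 group and for a mean CPM of 1 or more. Under it 19 members were tested and 4 rose, namely mt-Nd6, mt-Nd3, mt-Tl2 and mt-Tn, beside 0.623% of the 12515 genes tested (0.807% in both directions). Of those 19, 7 passed that filter only through the rIL17 libraries, mt-Nd3, mt-Tl2 and mt-Tn among them, so their higher level in rIL17 is partly built into the filter. The number of members called under the stricter filter turned on single libraries. It was 0 without rIL17 replicate 1 or without rIL17 replicate 2, 19 without PBS replicate 1 and 16 without PBS replicate 2. A group left with 1 library is assumed to vary like the other group.

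**Figure D2:**
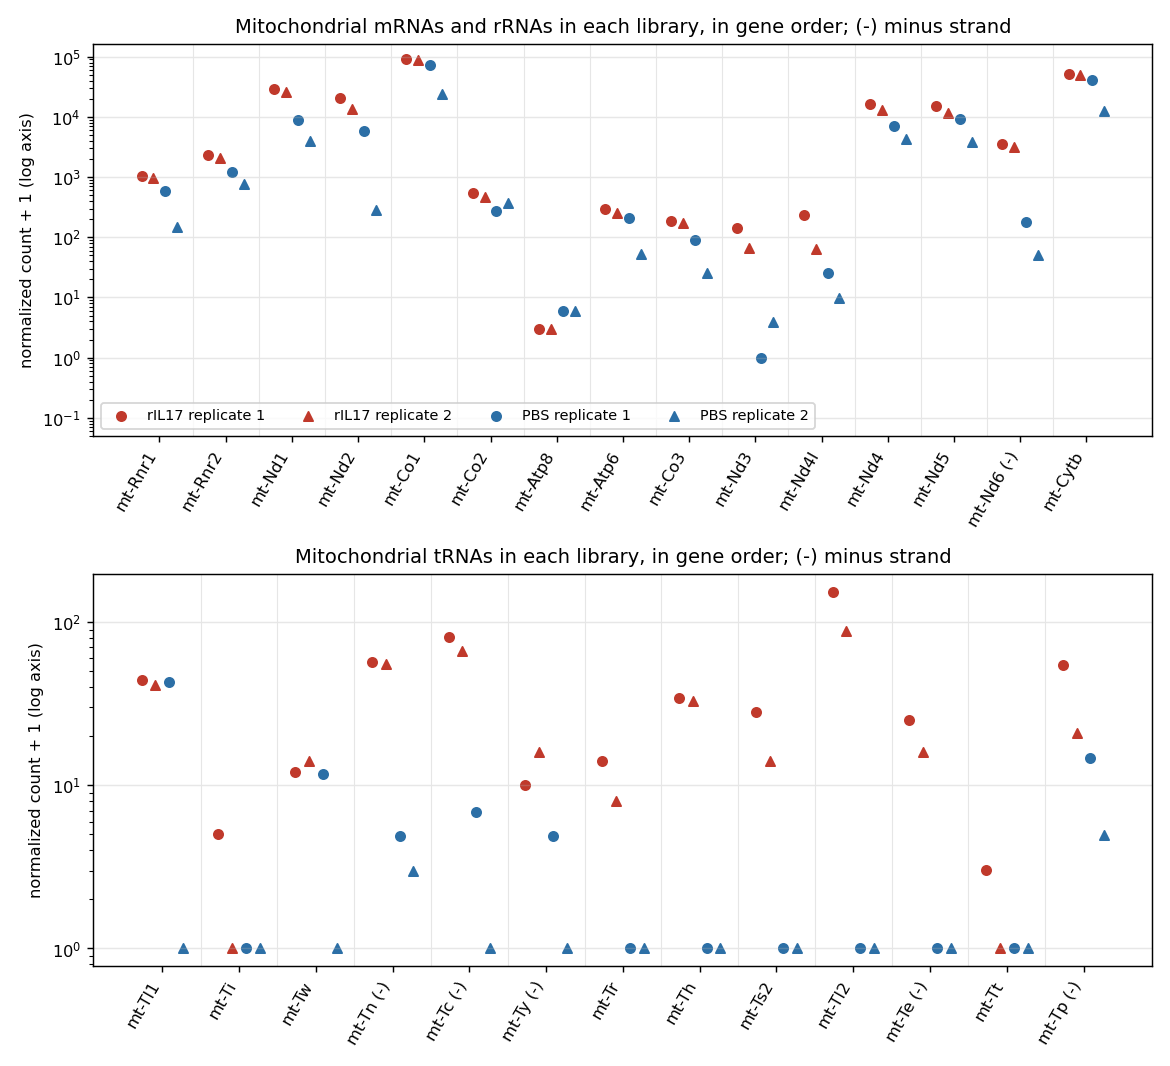
Normalized count + 1 (y axis, log scale) of each mitochondrial mRNA and rRNA (top) and tRNA (bottom) in gene order along the genome, with 1 point per library, rIL17 in red and PBS in blue, circles for replicate 1 and triangles for replicate 2. PBS replicate 2 is the lowest point for most mRNAs, and several tRNAs sit at 0 in both PBS libraries.

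mt-Nd6 (ENSMUSG00000064368, mm10 chrM:13552-14070, minus strand) encodes a subunit of complex I and is the only mitochondrial mRNA annotated on the minus strand. It had 3602 and 3118 normalized counts in the rIL17 libraries, against 182 and 49.7 in the PBS libraries. The rIL17 libraries lay close together and far above both PBS libraries, with means of 3360 ± 342 in rIL17 and 116 ± 93.2 in PBS (SD, n = 2 per group), 29.1-fold higher. The log2 fold change was 5.12 (SE 0.69, 95% confidence interval 3.12 to 7.12; limma adjusted p = 0.369 over all genes and 0.0212 under the stricter filter). Without PBS replicate 2 it was 4.20. In human cells the ND6 mRNA is known to carry little or no poly(A) tail, unlike the other mitochondrial mRNAs.

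The gene sits between mt-Nd5 and mt-Cytb, which are annotated on the plus strand, and differs from them in base composition. The first 60 bases of the mt-Nd6 and mt-Nd5 transcripts, from GENCODE M21 on mm10 (chrM:14011-14070 and chrM:11742-11801), show the contrast, with the start codon in capitals:
mt-Nd6: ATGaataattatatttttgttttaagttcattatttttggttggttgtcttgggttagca
mt-Nd5: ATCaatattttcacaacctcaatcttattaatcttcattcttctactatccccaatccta
Over the whole transcript mt-Nd6 has 43.7% T, 28.1% G and 6.0% C, and mt-Nd5 has 28.6% T, 10.0% G and 27.1% C. Libraries were made with a directional kit, but the strand setting of the counting is not given in the sources used here. Without strand, reads of mt-Nd6 and of precursor RNA from the opposite strand cannot be told apart.

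The other complex I mRNAs without an annotated full-length nuclear copy were also higher in rIL17. mt-Nd1 had 29027 and 25786 normalized counts in rIL17 and 8943 and 3997 in PBS, a mean ratio of 4.24 (log2 fold change 2.19, SE 0.44, limma adjusted p = 0.37). Its groups did not overlap, and against PBS replicate 1 alone the ratio was 3.06. mt-Nd2 had 20682 and 13446 in rIL17 and 5912 and 277 in PBS. Its PBS libraries differed 21.3-fold, the widest gap between replicates among the mRNAs with counts in every library, so the log2 fold change of 3.70 had an SE of 1.65. mt-Nd4 had 16672 and 12998 in rIL17 and 7093 and 4285 in PBS (ratio 2.61). mt-Nd5 had 14992 and 11777 in rIL17 and 9375 and 3895 in PBS (ratio 2.02, and 1.43 against PBS replicate 1). Without a correction for GC content, none of these 4 passed over all genes or under the stricter filter.

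The most abundant mRNAs, mt-Co1 and mt-Cytb, differed less between groups than between the PBS replicates. mt-Co1, the catalytic subunit of complex IV, had 91819 and 87129 normalized counts in rIL17 and 72736 and 24277 in PBS. The rIL17 libraries were 1.05-fold apart and the PBS libraries 2.996-fold apart, while the means differed 1.84-fold (log2 fold change 1.09, SE 0.59, limma adjusted p = 0.516). Without PBS replicate 2 the log2 fold change was 0.30. mt-Cytb, the only mitochondrially encoded subunit of complex III, had 52213 and 49860 in rIL17 and 41222 and 12513 in PBS, a 1.90-fold difference of means (log2 fold change 1.17, SE 0.64) that came to 0.31 on the log2 scale without PBS replicate 2.

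**Figure D3:**
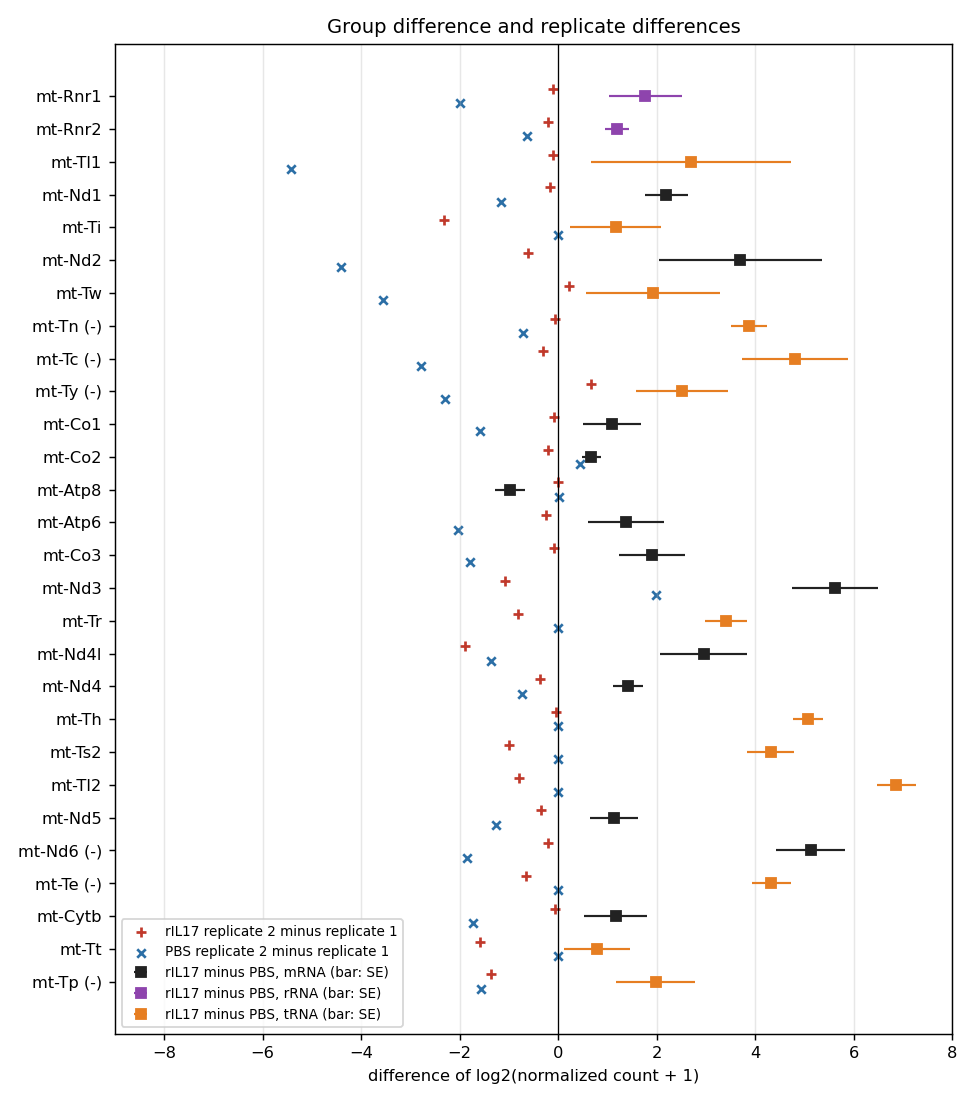
Difference in log2(normalized count + 1) for each member in gene order: squares give rIL17 minus PBS with its SE (mRNA black, rRNA purple, tRNA orange), red plus signs rIL17 replicate 2 minus replicate 1, and blue crosses PBS replicate 2 minus replicate 1. The blue crosses reach -5.43 for mt-Tl1 and -4.41 for mt-Nd2. In absolute size the group difference exceeds the difference between the PBS replicates for 20 of 28 members. For mt-Nd6 and mt-Tn, with reads in every library, it exceeds both replicate differences. For tRNAs at 0 in both PBS libraries, such as mt-Th and mt-Tl2, the blue cross lies at 0 whatever the rIL17 level.

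Shares within the mitochondrial mRNAs take the overall level of mitochondrial RNA out. mt-Nd6 made up 1.56% and 1.52% of all mitochondrial mRNA counts in rIL17, against 0.124% and 0.0999% in PBS, a ratio of 13.8 that was 12.4 against PBS replicate 1 alone. mt-Nd1 made up 12.6% and 12.6% in rIL17 and 6.12% and 8.03% in PBS. mt-Co1 took a smaller share, 39.9% and 42.5% in rIL17 and 49.8% and 48.8% in PBS, and so did mt-Cytb, with 22.7% and 24.3% in rIL17 and 28.2% and 25.2% in PBS. The shares of mt-Nd4 (7.24% and 6.34% in rIL17, 4.86% and 8.61% in PBS) and mt-Nd5 (6.51% and 5.74% in rIL17, 6.42% and 7.83% in PBS) overlapped between groups. These shares sum to a whole, so a larger share of 1 mRNA lowers the others, and no test was made on them.

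**Figure D4:**
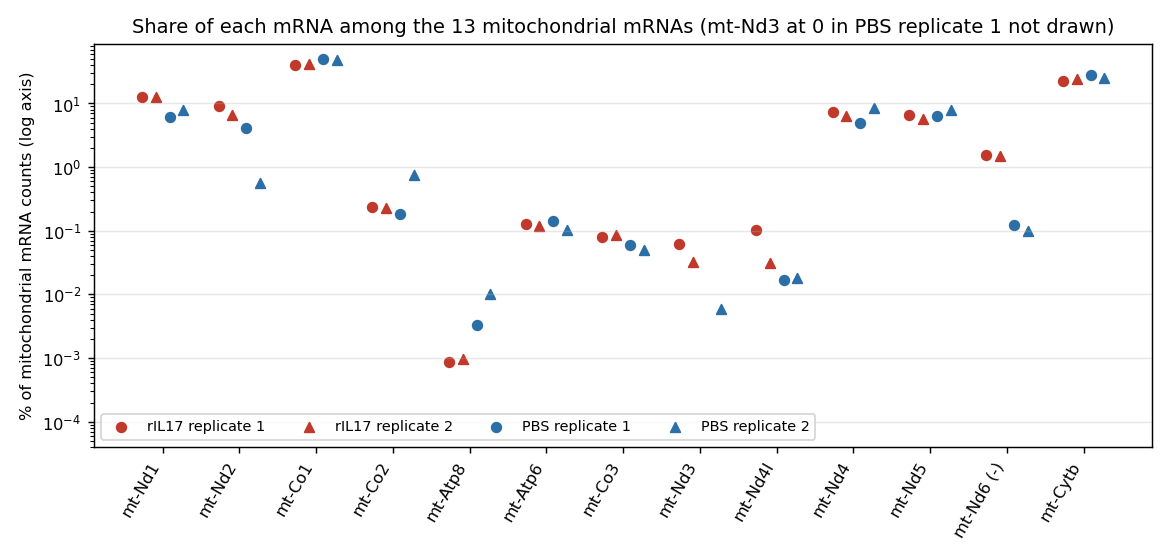
Share of each mRNA among the 13 mitochondrial mRNAs (y axis, percent of mitochondrial mRNA counts, log scale) in gene order, with 1 point per library, rIL17 in red and PBS in blue. mt-Nd6 is at 1.52% to 1.56% in the rIL17 libraries and at 0.0999% to 0.124% in the PBS libraries, while mt-Co1 and mt-Cytb are lower in rIL17.

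Some of the mRNAs have a near-identical annotated copy in the nuclear genome, which can share their reads. A run of pseudogenes on chromosome 1 (mm10, 24611535 to 24616197, minus strand) carries such copies. Gm28661 is 100% identical to mt-Co2 over 681 bases, Gm10925 to mt-Atp6 over 678, Gm28437 to mt-Co3 over 783 and Gm10222 to mt-Nd4l over 294. Gm28438 matches 345 bases of mt-Nd3 at 99.71%, Gm28439 is 100% identical to the first 876 bases of mt-Nd4, and Gm29216 matches the last 483 bases of mt-Co1 at 99.79%. The 5 mRNAs with a full-length copy had mean levels of 229 to 738 normalized counts per kilobase in rIL17 and 4.29 to 467 in PBS. Without an annotated copy of at least 99% identity, mt-Nd1, mt-Nd2, mt-Nd5, mt-Nd6 and mt-Cytb had 6474 to 44612 per kilobase in rIL17 and 223 to 23485 in PBS. mt-Atp8, for which none is annotated either, had 9.84 in rIL17 and 24.2 in PBS. It lies between mt-Co2 and mt-Atp6. Only annotated transcripts were searched, not the stretch between the copies of those 2 genes (chromosome 1, after 24614651 and before 24614885). mt-Atp8 is therefore not known to be free of a copy. mt-Co1 had the highest level of all, 57912 per kilobase in rIL17 and 31396 in PBS. How the authors' counting treated reads that match both places is not given in the sources used here, so counts of the mRNAs with a full-length copy are uncertain.

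mt-Nd3 shows how close these copies are. Over 345 bases mt-Nd3 (chrM:9459-9490 for the stretch shown) and Gm28438 (chr1:24613088-24613119, minus strand) differ by T3C, counted from the first base of the coding sequence with the base of mt-Nd3 given first. That base, in capitals, is the last of the start codon:
mt-Nd3: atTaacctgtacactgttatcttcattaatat
Gm28438: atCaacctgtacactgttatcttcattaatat
mt-Nd3 had 142 and 66.2 normalized counts in rIL17 and 0 and 2.98 in PBS. Both PBS libraries together held 3 reads, so the ratio of 70.1 has a 95% counting interval of 23.7 to 343 (exact binomial, counting error only). mt-Nd3 rose under the stricter filter (limma adjusted p = 0.0406; 0.37 over all genes). Gm28438 had 241 and 182 in rIL17 and 2.94 and 0 in PBS (limma adjusted p = 0.0187 under the stricter filter, which it passed only through the rIL17 libraries, and 0.369 over all genes).

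For the other mRNAs with a full-length copy the groups also separated with rIL17 above PBS. mt-Nd4l had 236 and 63.2 normalized counts in rIL17 and 24.5 and 8.95 in PBS. mt-Co3 had 185 and 175 in rIL17 and 88.3 and 24.9 in PBS. mt-Co2 had 542 and 468 in rIL17 and 271 and 368 in PBS, and was higher in PBS replicate 2 than in PBS replicate 1. mt-Atp6 had 295 and 248 in rIL17 and 211 and 50.7 in PBS. None of these 4 passed over all genes or under the stricter filter. Their copies had 244 ± 20.99 (Gm28437), 398 ± 31.9 (Gm10925), 499 ± 86.0 (Gm28661) and 27.1 ± 9.90 (Gm10222) normalized counts in rIL17, against 43.7 ± 53.4 (Gm28437), 58.5 ± 64.4 (Gm10925), 455 ± 76.3 (Gm28661) and 20.7 ± 15.2 (Gm10222) in PBS (SD, n = 2 per group). With copy and mRNA summed, mt-Co2 had 1102 and 907 in rIL17 and 672 and 877 in PBS, mt-Atp6 had 715 and 623 in rIL17 and 315 and 63.6 in PBS, and mt-Co3 had 443 and 403 in rIL17 and 170 and 30.8 in PBS.

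mt-Atp8, whose reading frame overlaps that of mt-Atp6 and which encodes the smaller of the mitochondrial complex V subunits, was the lone member lower in rIL17. It had 2.01 normalized counts in each rIL17 library, against 4.91 and 4.97 in PBS. With 4 reads in rIL17 and 10 in PBS the ratio was 0.407, with a 95% counting interval of 0.0931 to 1.41 that spans no difference. Whether mt-Atp8 shares reads with the run on chromosome 1 was not tested.

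The 2 rRNAs had smaller log2 fold changes than most tRNAs. mt-Rnr2, the large-subunit rRNA, had 2357 and 2053 normalized counts in rIL17, against 1199 and 778 in PBS. The groups did not overlap, and the means were 2205 ± 215 in rIL17 and 988 ± 298 in PBS (SD, n = 2 per group; 2.23-fold, log2 fold change 1.19, SE 0.25, limma adjusted p = 0.373 over all genes and 0.0641 under the stricter filter). With the GC correction described further on, the log2 fold change of mt-Rnr2 was 0.17. mt-Rnr1, the small-subunit rRNA, had 1039 and 967 in rIL17 and 587 and 147 in PBS (2.73-fold, and 1.71-fold against PBS replicate 1). Their part of all mitochondrial counts overlapped between groups, at 1.45% in both rIL17 libraries and 1.21% and 1.82% in PBS. Per kilobase mt-Rnr2 was at 1394 in rIL17 and 625 in PBS. Both lie below every mRNA that lacks an annotated full-length copy, except mt-Atp8 in rIL17 and except mt-Atp8 and mt-Nd6 in PBS.

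Most tRNAs had few reads, and their counts rested mainly on the rIL17 libraries. The counts do not tell a processed tRNA from precursor RNA, nor, without the strand setting, RNA of 1 strand from RNA of the other. On the plus strand, mt-Th, mt-Ts2 and mt-Tl2, which carry histidine, serine and leucine, form 1 block between mt-Nd4 and mt-Nd5 (chrM:11546-11741). The block is shown with each anticodon in capitals, located as the only match to the known anticodon after a pyrimidine and T and before a purine in the middle part of the tRNA. The arginine tRNA mt-Tr, likewise at 0 in PBS replicates 1 and 2, follows:
mt-Th: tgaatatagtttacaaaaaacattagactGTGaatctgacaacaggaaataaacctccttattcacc
mt-Ts2: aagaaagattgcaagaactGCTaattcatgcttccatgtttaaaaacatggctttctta
mt-Tl2: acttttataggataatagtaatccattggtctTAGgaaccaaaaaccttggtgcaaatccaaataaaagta
mt-Tr: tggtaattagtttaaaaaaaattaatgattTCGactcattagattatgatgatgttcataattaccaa
mt-Tl2 had 152 and 87.3 normalized counts in rIL17 and 0 in both PBS libraries, at least 40.3-fold higher against a floor of 3 reads per library, and rose under the stricter filter (limma adjusted p = 0.0106; 0.25 over all genes). mt-Th had 33.2 and 32.1 in rIL17 and 0 in PBS, at least 11.0-fold higher. mt-Ts2 had 27.1 and 13.04 and mt-Tr 13.1 and 7.02 in rIL17, against 0 in PBS for both, at least 6.78-fold (mt-Ts2) and 3.39-fold (mt-Tr) higher. mt-Tr lies between mt-Nd3 and mt-Nd4l. The stretch between their copies on chromosome 1 was not searched, so whether mt-Tr shares reads with it was not tested. The mRNAs that flank the block, mt-Nd4 and mt-Nd5, had at least 3895 normalized counts in every library, PBS included.

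For all 5 minus-strand tRNAs in the table, as for mt-Nd6, the groups separated with rIL17 above PBS, beside 25.4% of all genes tested. On the plus strand they did so for 11 of 12 mRNAs, 2 of 2 rRNAs and 5 of 8 tRNAs. A cluster between mt-Nd2 and mt-Co1 holds mt-Tn, mt-Tc and mt-Ty, the tRNAs for asparagine, cysteine and tyrosine, and mt-Te, the glutamic acid tRNA, lies next to mt-Nd6. They are shown 5' to 3' with the anticodon in capitals:
mt-Tn: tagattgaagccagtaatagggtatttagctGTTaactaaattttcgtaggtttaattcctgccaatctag
mt-Tc: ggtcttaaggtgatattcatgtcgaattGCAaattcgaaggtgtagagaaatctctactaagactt
mt-Ty: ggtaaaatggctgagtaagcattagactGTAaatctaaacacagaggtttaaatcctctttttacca
mt-Te: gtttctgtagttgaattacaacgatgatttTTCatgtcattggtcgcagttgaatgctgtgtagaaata
mt-Tn had 56.3 and 54.2 normalized counts in rIL17 and 3.92 and 1.99 in PBS, on 110 and 6 reads, a count ratio of 18.6 with a 95% counting interval of 8.29 to 51.9 (log2 fold change 3.87, SE 0.36; limma adjusted p = 0.0293 under the stricter filter and 0.36 over all genes). mt-Tc had 80.4 and 65.2 in rIL17 and 5.89 and 0 in PBS, with a 95% counting interval of the ratio of 11.0 to 68.0. mt-Te had 24.1 and 15.0 in rIL17 and 0 in both PBS libraries, at least 6.61-fold higher. mt-Ty had 9.05 and 15.0 in rIL17 and 3.92 and 0 in PBS, and mt-Tp, the proline tRNA, had 53.3 and 20.1 in rIL17 and 13.7 and 3.98 in PBS. Summed over the 6 minus-strand members, rIL17 had 3825 and 3288 and PBS 209 and 55.7 normalized counts. Most of each sum was mt-Nd6. The 5 tRNAs alone summed to 223 and 169 in rIL17 and to 27.5 and 5.97 in PBS. The 22 plus-strand members summed to 230488 and 205230 in rIL17 and to 147719 and 50630 in PBS.

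The remaining plus-strand tRNAs did not separate the groups clearly. mt-Tl1, a leucine tRNA directly after mt-Rnr2, had 43.2 and 40.1 normalized counts in rIL17 and 42.2 and 0 in PBS. PBS replicate 1 lay between the rIL17 libraries, and the log2 fold change of 2.70 turned to -0.02 without PBS replicate 2. mt-Tw, the tryptophan tRNA, had 11.1 and 13.04 in rIL17 and 10.8 and 0 in PBS, and its log2 fold change of 1.92 was 0.14 without PBS replicate 2. mt-Ti, for isoleucine, had 4.02 and 0 in rIL17 and 0 in PBS, and mt-Tt, for threonine, 2.01 and 0 in rIL17 and 0 in PBS. Those 2 are at or near the floor of 3 reads.

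GC content moved with the result. The mitochondrial transcripts have GC contents of 31.9% to 41.1% (mRNAs), 35.4% to 35.8% (rRNAs) and 22.1% to 44.8% (tRNAs). Nuclear genes of similar GC content were also higher in rIL17. Only nuclear genes that passed the stricter filter were used here, 12488 in all, while the members were not held to that filter. For the 681 nuclear genes with 35% to 40% GC the median log2 fold change was 0.52, the groups separated upwards for 73.6%, and the median difference of PBS replicate 2 from PBS replicate 1 was -0.45 on the log2 scale. For the 32 nuclear genes below 35% GC the median was 0.78 and the 90th percentile 3.15, and without the 2 annotated mitochondrial copies among them 0.66 and 2.73. For the 3285 genes at 45% to 50% it was -0.003. Each library was then corrected for its trend with GC content over the same nuclear genes, which spanned 29.6% to 86.2% GC. mt-Tr (22.1%) and mt-Ti (27.5%) lie outside that span and were given the correction at its lower end. After correction the median log2 fold change was 0.61 for mRNAs, 0.49 for rRNAs and 2.56 for tRNAs. In that fit limma called 3 members over all genes, beside 0.488% of all genes. They were mt-Nd6 (log2 fold change 3.93, adjusted p = 0.0119), mt-Tl2 (5.24, adjusted p = 0.0258) and mt-Nd1 (1.46, adjusted p = 0.0311), and mt-Tl2, at 0 in both PBS libraries, was in the test only through the rIL17 libraries. The correction shifts genes of equal GC content alike and lowers the fold change at low GC content. A smaller value for the members is therefore built into it. mt-Atp8 also fell, from -0.98 to -2.48. Of the 27 members with a positive log2 fold change, all 27 had a smaller one after correction. It was 0.05 for mt-Co2 (0.67 before), 0.17 for mt-Rnr2 (1.19 before), 0.34 for mt-Nd5 (1.14 before), 0.43 for mt-Nd4 (1.42 before) and 0.43 for mt-Atp6 (1.37 before). It was 0.81 for mt-Rnr1 (1.77 before) and 1.61 for mt-Tr (3.41 before), and it turned negative for mt-Ti and mt-Tt.

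**Figure D5:**
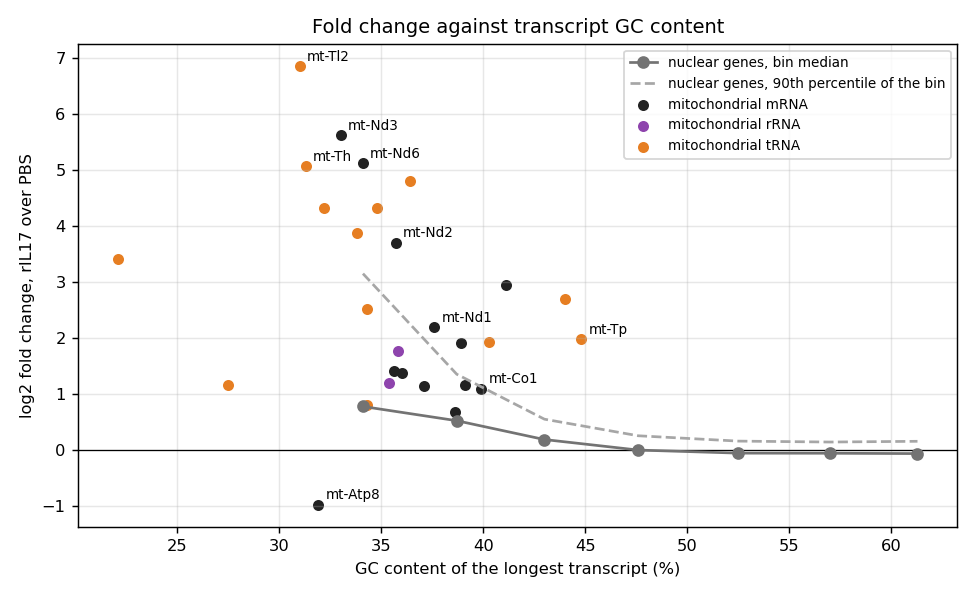
log2 fold change, rIL17 over PBS (y axis), against the GC content of the longest transcript (x axis, percent) for the mitochondrial members (points by class) and for nuclear genes in 7 bins of GC content (grey line, bin median at the median GC of the bin; dashed line, 90th percentile). The bins hold nuclear genes that passed the stricter filter, to which the members were not held. The nuclear median is 0.52 in the bin from 35% to 40% GC. mt-Nd6, mt-Nd3 and mt-Tl2 lie above 3.15, the 90th percentile of nuclear genes below 35% GC (2.73 without annotated mitochondrial copies).

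Nuclear genes that work with these transcripts had medians near 0. Of the nuclear subunits of complexes I, III, IV and V, limma called 0 of 36, 0 of 9, 0 of 11 and 0 of 15 over all genes, with median log2 fold changes of -0.08, -0.07, -0.07 and -0.05. At an unadjusted p below 0.05, limma gave 2 lower in complex I, 1 lower in complex IV and 0 in complexes III and V, beside 7.63% higher and 5.15% lower over all genes tested (0% called), and limma-voom called 0 members of the 7 lists of respiratory subunits and mitochondrial RNA genes. The groups separated downwards for 12 of 36 subunits of complex I, 2 of 9 of III, 1 of 11 of IV and 5 of 15 of V, beside 20% of all genes tested. They separated upwards for 1, 0, 0 and 2, beside 25.4%. The median over all 4 complexes was -0.07, and 0.01 without PBS replicate 2. Ndufs3, a core subunit of complex I, had 1276 and 1247 normalized counts in rIL17 and 1413 and 1489 in PBS, and Ndufb4 and Ndufc1, accessory subunits, had log2 fold changes of -0.19 and 0.33. In complex III, Uqcrc1 had a log2 fold change of -0.12, Uqcrb of 0.38 and Uqcr10 of -0.13. In complex IV, Cox6c had 4025 and 4085 in rIL17 and 4540 and 4551 in PBS, Cox8a a log2 fold change of -0.10 and Cox6b1 of -0.06. In complex V, Atp5a1 and Atp5b, the alpha and beta subunits of the catalytic head, had -0.10 and -0.11, and Atp5j, a subunit of the stalk, had 0.21. Whether the mitochondrial and nuclear subunits differ in their change was not tested.

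Genes for mitochondrial transcription and DNA maintenance had 0 of 23 called, a median log2 fold change of -0.04, and 1 gene higher and 1 lower at an unadjusted p below 0.05 (all genes: 0% called, 7.63% higher, 5.15% lower). Of the 23, the groups separated downwards for 10 and upwards for 2, beside 20% and 25.4% of all genes tested. Polrmt, the mitochondrial RNA polymerase, had 698 and 728 normalized counts in rIL17 and 807 and 755 in PBS. Tfam, which packages mitochondrial DNA and activates its transcription, had 976 and 855 in rIL17 and 1054 and 1007 in PBS. For both genes the rIL17 libraries were the lower. Tefm, an elongation factor, had a log2 fold change of -0.11, Gabpa, a transcription factor of nuclear respiratory genes, of 0.36, Top1mt, a topoisomerase, of -0.31 and Polg2, a subunit of the DNA polymerase, of -0.30. Ppargc1a, a coactivator of mitochondrial biogenesis, was at 2.01 and 0 in rIL17 and 2.94 and 2.98 in PBS, at or under the floor.

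Genes for mitochondrial RNA processing, stability and decay had 0 of 28 called, a median log2 fold change of 0.02, and 0 genes higher and 1 lower at an unadjusted p below 0.05, against the same 7.63% and 5.15% of all genes. Of the 28, the groups separated downwards for 7 and upwards for 9 (20% and 25.4% of all genes). Lrpprc, which stabilises mitochondrial mRNAs, had 1745 and 1678 normalized counts in rIL17 and 1853 and 1727 in PBS, and its partner Slirp had 69.4 and 45.1 in rIL17 and 63.8 and 49.7 in PBS. For both genes the groups overlapped. Of the decay enzymes, Pnpt1, a polynucleotide phosphorylase, had 710 and 733 in rIL17 and 657 and 418 in PBS, while Supv3l1, its helicase partner, had 408 and 493 in rIL17 and 485 and 523 in PBS. Elac2, which cuts the 3' ends of tRNAs from the precursor, had a log2 fold change of -0.16, Tbrg4, an RNA-binding protein of the FASTK family, of -0.17, and Pde12, which trims poly(A) tails, of 0.16. The mitochondrial tRNA synthetases had 0 of 17 called, with a median of -0.11 and 0 higher and 1 lower at an unadjusted p below 0.05 (7.63% and 5.15% of all genes). Aars2, Hars2 and Sars2, which charge the alanine, histidine and serine tRNAs, had log2 fold changes of -0.25, -0.17 and -0.15. The 81 mitochondrial ribosomal protein genes had 0 called, with a median of -0.11 and 0 higher and 5 lower at an unadjusted p below 0.05, beside 7.63% higher and 5.15% lower over all genes. The groups separated downwards for 35 of these 81 and for 6 of the 17 synthetases, beside 20% of all genes. They separated upwards for 8 and 1, beside 25.4%.

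Other RNAs that are nuclear-retained or lack a poly(A) tail gave further values beside those of the mitochondrial classes. Malat1, a nuclear RNA, had 8404 and 8892 normalized counts in rIL17 and 9310 and 8710 in PBS, Neat1 had 4788 and 4682 in rIL17 and 4873 and 5222 in PBS, and Rn7sk had 16.1 and 11.0 in rIL17 and 8.83 and 9.94 in PBS. The 51 small nucleolar RNA genes summed to 483 and 474 in rIL17 and to 503 and 513 in PBS, and the 53 replication-dependent histone genes to 852 and 804 in rIL17 and to 832 and 906 in PBS. Of 47 small nucleolar RNA genes tested, log2 fold changes ran from -1.78 to 4.32. At an unadjusted p below 0.05, limma gave 3 higher and 6 lower, beside 7.63% and 5.15% of all genes tested. Of the 7 under the stricter filter, Snord72 alone was called higher, where 0.623% of all genes under that filter were. Snord72 had 50.3 and 45.1 normalized counts in rIL17 and 1.96 and 0.994 in PBS. It was named after its values were seen, and passed that filter only through the rIL17 libraries.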

How the data were processed

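Total RNA went into a directional library kit, per the labels' protocols, and per the submitters' processing notes the tools were CASAVA, HISAT2 2.0.5 and featureCounts 1.5.0-p3 on mm10. Not given in the sources used here: annotation, strand setting and scaling method. The deposited table holds a signal for each gene and library that the authors had scaled. Its values were whole multiples of 1 step per library (100.0% within 0.001 of a whole multiple), so the number of reads was taken as value over step, and values are called normalized counts. No count model was run.

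Of 21840 rows, 21819 matched a symbol in GENCODE M21. Genes with a mean of at least 1 in 1 group (20677) were compared by limma 3.58.1 (R 4.3.3) with a trend on log2(normalized count + 1) and Benjamini-Hochberg adjustment over all genes tested, at 0.05. Counting intervals and the floor of 3 reads cover counting error only. Copies were found by BLAST of the mitochondrial transcripts against all M21 transcripts. The GC correction subtracted from each library a loess curve (span 0.3) fitted on 12488 nuclear genes that passed the stricter filter. The curve was held constant beyond their range of GC content. Scripts were tested on simulated data.

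The members, gene lists, tests and alternatives were chosen with earlier results of these data known. Ribosomal protein, small nucleolar RNA and histone lists were taken by symbol prefix after the files were seen. Named are all members, the nuclear copies of at least 95% identity over 50 bases, 8 genes by role and up to 3 genes with the smallest p per list. Other scalings, filters, pseudocounts, limma-voom, a replicate block, the GC correction and leaving out each library were tried.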

Additional observations from a re-analysis of the deposited data

How the results depend on the processing

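Depth limits the tRNAs, which held 506 and 361 reads in the rIL17 libraries and 82 and 6 in the PBS libraries, and with 2 libraries per group a single one can decide a call. The cause of the changes below was not tested. The genes called of all tested, 0 as reported, were 1 with total-count scaling without mitochondrial genes, 1 with limma-voom, 101 with the stricter filter, 101 with the GC correction and 63 with the GC correction and replicate block. Under settings chosen after seeing the data, the stricter filter gave 1032 with the replicate block, 275 with the GC correction, 191 with limma-voom and 1 to 2734 with 1 library left out (1 and 4 without rIL17 replicates 1 and 2, 2734 and 686 without PBS replicates 1 and 2). Mitochondrial genes called, 0 as reported, were 4 with the stricter filter, 3 with the GC correction and 3 when the replicate block was added to it. With the stricter filter they were 15 with the replicate block, 6 with the GC correction, 8 with limma-voom and 0 to 19 with 1 library left out (19 and 16 without PBS replicates 1 and 2). With the replicate block and the reported filter they stayed at 0. Nothing in the labels says that replicate numbers mark a shared culture or day. Deviations of same-numbered libraries correlated at r = 0.157 over 12515 genes, with 2 pairs, too few to show whether the numbers pair the libraries, and they were treated as names only.

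The rRNA median log2 fold change was 0.49 with the GC correction, alone or with the block. The tRNA median was 4.34 with a pseudocount of 0.1 and 2.56 with the GC correction, alone or with the block. It was 2.70 with members at 0 in PBS at their bound, or at 0 for mt-Ti and mt-Tt. With 1 library left out, the medians ran from 1.02 to 2.39 for mRNAs, 0.82 to 2.13 for rRNAs and 3.004 to 4.23 for tRNAs. The ratio of shares ran from 1.47 to 4.26 for mRNAs, 1.77 to 3.38 for rRNAs and 5.33 to 71.0 for tRNAs. Taken as a share of mitochondrial counts it was 0.999 for mRNAs and 0.956 for rRNAs.

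Of 488 values for the 28 members under alternatives, 408 kept direction and side of the threshold, 74 newly passed it and 6 reversed. The reversed members were mt-Tl1, at -0.018 without PBS replicate 2 under either filter (5.41 without PBS replicate 1), and mt-Ti and mt-Tt, at -0.63 and -0.36 with the GC correction, alone or with the block (mt-Ti lies below the GC range of the fitted genes). With the same correction, alone or with the block, Gm28661 was at -0.48, Pde12 at -0.13, Pnpt1 at -0.053 and Uqcrb at -0.057. Gm15564 was at -0.013 with upper-quartile scaling, -1.07 with a pseudocount of 0.1, -0.23 with limma-voom, and -1.28 to 1.31 with 1 library left out (-1.28 without rIL17 replicate 1, -0.27 without PBS replicate 2). With 1 library left out, Cox8a ran from -0.20 to 0.0068 and Gm10222 from -0.25 to 1.31, both crossing 0 without PBS replicate 2. Gm28661 ran from -0.044 to 0.31, below 0 without rIL17 replicate 1 and without PBS replicate 1, and Gm47283 from -0.13, without rIL17 replicate 2, to 0.69. Slirp ran from -0.31 to 0.30, above 0 without rIL17 replicate 2 and without PBS replicate 1.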

Other observations

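2 further symbols listed as nuclear copies of mitochondrial DNA, Gm15564 and Gm47283, did not align to a mitochondrial transcript at the identity asked for. Gm15564 had 5.03 and 0 normalized counts in the rIL17 libraries, against 1.96 and 0.994 in the PBS libraries. Gm47283 had 838 and 1474 in rIL17 and 871 and 962 in PBS.

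A copy of mt-Co1 on chromosome 2, Gm13340, is 97.6% identical over 1545 bases and had 28.1 and 27.1 normalized counts in rIL17, against 13.7 and 13.9 in PBS. Gm13341, 95.91% identical to mt-Co2 over 684 bases, had 2.01 and 1.00 in rIL17 and 0 in both PBS libraries. Gm13339 (96.67% identical to mt-Nd2 over 510 bases) and Gm4076 (95.18% identical to mt-Nd5 over 954 bases) were not analysed here.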
